A study of Mus musculus with 8 samples.

Results

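Platelet-derived growth factors (PDGFs) and their receptors were followed across 4 isogenic mouse mammary tumour cell lines, namely 4T1.2, 4T1, 66cl4 and 67NR. The members are the 4 ligand genes Pdgfa, Pdgfb, Pdgfc and Pdgfd and the 2 receptor genes Pdgfra and Pdgfrb. All 6 were found by symbol among the 27179 Entrez identifiers of the count table. RNA-seq libraries had been prepared from cultured cells of each line with 2 biological replicates per line, 8 libraries in all, and the labels name no treatment. The lines descend from a BALB/c mammary tumour, 4T1.2 is a clone of 4T1, and 66cl4 and 67NR are described by the study as having low metastatic potential relative to 4T1 and 4T1.2. The sample labels print 66cl4 with a digit in place of its letter l. Each group is a cell line in culture, so no host stroma was sampled, and differences between lines cannot be told apart from other differences between clones.

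PDGF ligands are secreted as dimers that cross-link receptor tyrosine kinases on the receiving cell. Pdgfa and Pdgfb encode the classical A and B chains, which are cut by furin-like convertases inside the cell. Pdgfc and Pdgfd encode chains that are secreted latent and become active once a protease removes an N-terminal CUB domain. The A and C chains act mainly through the alpha receptor encoded by Pdgfra, the D chain mainly through the beta receptor encoded by Pdgfrb, and the B chain through either receptor. In mammary tumours these ligands are known for recruiting fibroblasts and pericytes, the cells in which Pdgfrb is usually found.

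Total counts per library ran from 37159840 to 66269681, and the shallowest library was 67NR replicate 1. Replicates of a line correlated at r = 0.995 to 0.996 on the log2 scale over 13927 tested genes, and different lines at 0.779 to 0.985. Of the mammary epithelial markers, Krt8 was measured in every line, at 995, 1430, 604 and 495 CPM (counts scaled to a common library size) in 4T1.2, 4T1, 66cl4 and 67NR. Epcam and Cdh1 reached 11.4 CPM or more in either 4T1 line but no more than 0.0995 CPM in the other lines, so these defining epithelial markers were at or near 0 in the latter pair. In bulk libraries, fewer cells expressing a gene and less RNA per cell cannot be told apart.

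Upstream sequence is shown for 3 members, 1 ligand that was high in 4T1.2 and 4T1, 1 ligand close to absence in 67NR, and the receptor measured in every line. Each window holds the 250 bases before a RefSeq transcript start (GRCm38.p6), read 5′ to 3′ on the strand of the gene, with GC boxes (GGGCGG on either strand) in capitals.
Pdgfa, minus strand, chr5:138994945-138995194: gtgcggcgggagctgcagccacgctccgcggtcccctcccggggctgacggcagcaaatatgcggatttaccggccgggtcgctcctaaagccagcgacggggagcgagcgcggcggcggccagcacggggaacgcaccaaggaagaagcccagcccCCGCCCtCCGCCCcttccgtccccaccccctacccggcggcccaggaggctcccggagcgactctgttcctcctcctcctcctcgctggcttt
Pdgfc, plus strand, chr3:81036166-81036415: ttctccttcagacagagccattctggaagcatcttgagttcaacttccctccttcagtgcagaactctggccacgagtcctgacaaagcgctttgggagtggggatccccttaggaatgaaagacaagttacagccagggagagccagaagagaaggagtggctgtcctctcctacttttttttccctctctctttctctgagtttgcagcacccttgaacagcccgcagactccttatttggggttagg
Pdgfra, plus strand, chr5:75152001-75152250: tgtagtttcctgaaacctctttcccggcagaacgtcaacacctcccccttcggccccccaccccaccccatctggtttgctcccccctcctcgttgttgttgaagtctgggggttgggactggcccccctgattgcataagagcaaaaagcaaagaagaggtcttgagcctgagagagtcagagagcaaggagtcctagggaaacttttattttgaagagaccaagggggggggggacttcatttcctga

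The Pdgfa window was 72.4% G and C with 28 CpG dinucleotides and 2 GC boxes. The Pdgfc and Pdgfra windows were 50.8% and 54.4% G and C with 3 and 4 CpG dinucleotides and no GC box. The median of all 32851 windows of this length was 52.4% G and C with 6 CpG dinucleotides. A GC box was found in 32.7% of them, CCAAT in 33.8% and TATAAA in 12.4%, searched on both strands. Neither CCAAT nor TATAAA was found in the 3 windows shown, and no searched motifs overlapped each other. Pdgfa has a further window at an alternative start, 66.4% G and C with 1 GC box. The Pdgfa and Pdgfra windows lie inside the chromosome spans of these genes given below, which extend further upstream. The letters were not tested against the expression values.

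Of the 6 members, 5 passed the filter on low counts and were tested, and Pdgfd did not. The comparison between the 2 lines of higher metastatic potential and the 2 of lower potential asked how tumour cells of the former differ. In the mean of 4T1.2 and 4T1 against the mean of 66cl4 and 67NR, 5 of 5 tested members passed the threshold of 0.05 on adjusted p, 4 higher and 1 lower. Of all 13927 tested genes, 76.8% passed, 38.1% higher and 38.6% lower, so a call by itself says little about these members. The libraries of the 4 lines did not overlap between the groups for 3 of the 5, Pdgfa, Pdgfb and Pdgfrb, against 55.5% of all tested genes. All adjusted p-values are Benjamini-Hochberg values of edgeR's quasi-likelihood fit across the tested genes, and they measure the spread between these libraries, which may in part be technical.

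Pdgfa (Entrez 18590, chr5:138976014-139000792, minus strand) was higher in 4T1.2 and 4T1 than in the other lines, with its top level in 4T1.2. It was measured at 199 and 204 CPM in 4T1.2, 108 and 126 for 4T1, 24.3 and 24.4 for 66cl4, and 17.9 and 20.0 for 67NR. Every 4T1.2 and 4T1 library lay above every 66cl4 and 67NR library. The line means were 201 ± 3.59, 117 ± 12.4, 24.4 ± 0.0847 and 18.9 ± 1.45 CPM (SD, n = 2 each). The pooled difference was 2.84 ± 0.07 (log2, SE), or 7.14-fold, with an edgeR adjusted p of 3.52e-10. Neighbouring lines in the order 4T1.2, 4T1, 66cl4, 67NR all differed past the threshold, by 0.78, 2.26 and 0.36 on the log2 scale. The last step, between 66cl4 and 67NR, passed with an edgeR adjusted p of 0.017. It no longer passed without 66cl4 replicate 1 (edgeR adjusted p = 0.0603), 66cl4 replicate 2 (adjusted p = 0.0628) or 67NR replicate 1 (adjusted p = 0.132). Stretches of 75 bases that also occur in transcripts of other genes made up 18.7% of those in Pdgfa transcripts, so part of its reads could be assigned elsewhere or lost.

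Pdgfb (Entrez 18591, chr15:79995865-80024614, minus strand), the ligand that binds either receptor, showed a single large step. It was measured at 108 and 109 CPM in 4T1.2, 98.5 and 93.6 for 4T1, 57.9 and 61.1 for 66cl4, and 8.02 and 8.34 for 67NR. The 67NR libraries stood far below all others. The line means were 109 ± 0.238, 96.0 ± 3.46, 59.5 ± 2.27 and 8.18 ± 0.228 CPM (SD, n = 2 each). The pooled difference of 2.21 ± 0.06 (log2, SE; edgeR adjusted p = 5.88e-10) combined unequal parts, 3.73 and 3.55 against 67NR for 4T1.2 and 4T1 but 0.87 and 0.69 against 66cl4. 66cl4 itself exceeded 67NR by 2.86 ± 0.09 (edgeR adjusted p = 5.81e-08). The difference between 4T1.2 and 4T1, 0.18 ± 0.08, did not pass (edgeR adjusted p = 0.175).

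Pdgfc (Entrez 54635, chr3:81036416-81214040, plus strand), whose product needs proteolytic activation, was low in 3 lines and close to absent in the other. Its read counts were 155 and 129 in 4T1.2, 313 and 209 for 4T1, 273 and 255 for 66cl4, and 1 and 3 for 67NR. In CPM the means were 2.50 ± 0.321, 4.81 ± 0.436, 5.85 ± 0.239 and 0.0379 ± 0.0151 (SD, n = 2 each). Relative to library size, 66cl4 held 144 times the Pdgfc reads of 67NR (95% exact interval 56.0 to 531), 4T1 119 times (46.4 to 440) and 4T1.2 61.5 times (23.8 to 227), and these intervals cover counting error only. The pooled difference of 2.79 ± 0.20 (log2, SE; edgeR adjusted p = 7.71e-07) rested on 67NR, since 66cl4 lay above 4T1.2 and the libraries of the groups overlapped. Pdgfc was lower in 4T1.2 than in 66cl4 (-1.23 ± 0.17 log2, edgeR adjusted p = 0.000106) and than in 4T1 (-0.95 ± 0.17, edgeR adjusted p = 0.00354). 4T1 and 66cl4 did not differ past the threshold (-0.28 ± 0.16, edgeR adjusted p = 0.14). Fitted log2 values against 67NR depend on how its 4 reads are treated. They were 5.86, 6.81 and 7.09 for 4T1.2, 4T1 and 66cl4, and over the alternatives those of 4T1 ran from 5.93 to 7.34 and those of 66cl4 from 6.21 to 7.62.

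Pdgfd (Entrez 71785, chr9:6168363-6534284, plus strand), the ligand of the beta receptor, was not detectable at this depth. It had 2 reads in 4T1.2 replicate 2, 1 read in 4T1 replicate 1 and none in the other libraries. A count of 0 allows up to 3 reads, or 0.0486 to 0.0818 CPM depending on the library. It was not tested.

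Pdgfra (Entrez 18595, chr5:75151322-75198206, plus strand), the alpha receptor, had the smallest fold between its highest and lowest line means among the tested members. It stood at 169 and 155 CPM in 4T1.2, 111 and 115 for 4T1, 147 and 118 for 66cl4, and 88.7 and 84.1 for 67NR. The 67NR libraries were the lowest, and the ranges of the pooled groups overlapped. The line means were 162 ± 9.72, 113 ± 2.82, 133 ± 20.7 and 86.4 ± 3.24 CPM (SD, n = 2 each). The pooled difference was 0.34 ± 0.08 (log2, SE), 1.27-fold, with an edgeR adjusted p of 0.00277. 4T1.2 and 67NR differed by 0.91 ± 0.11 (edgeR adjusted p = 5.64e-05), and 66cl4 exceeded 67NR by 0.62 ± 0.11 (adjusted p = 0.00151). 4T1 and 66cl4 did not differ past the threshold (-0.23 ± 0.11, edgeR adjusted p = 0.0911), but did without 66cl4 replicate 2 (-0.38, edgeR adjusted p = 0.0126). The difference of 4T1.2 from 66cl4 was 0.29 ± 0.11 (edgeR adjusted p = 0.041) and was lost without 4T1.2 replicate 1 (edgeR adjusted p = 0.175), 4T1.2 replicate 2 (adjusted p = 0.0587), 66cl4 replicate 2 (adjusted p = 0.29), or either 67NR library (adjusted p = 0.0668 each). The difference of 4T1 from 67NR, 0.39 (edgeR adjusted p = 0.0104), was lost without 67NR replicate 2 (adjusted p = 0.0772). That of 4T1.2 from 4T1, 0.51 (edgeR adjusted p = 0.0105), was lost without 4T1.2 replicate 1 (adjusted p = 0.0847).

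Pdgfrb (Entrez 18596, chr18:61045127-61085067, plus strand), the beta receptor, ran opposite to the ligands Pdgfa and Pdgfb in the pooled comparison. It was measured at 1.65 and 1.22 CPM in 4T1.2, 3.40 and 2.74 for 4T1, 357 and 334 for 66cl4, and 189 and 162 for 67NR. The groups did not overlap, and the lowest 67NR library was far above the highest 4T1 library. The pooled difference was -6.87 ± 0.12 (log2, SE), 117-fold lower in 4T1.2 and 4T1, with an edgeR adjusted p of 3.00e-11. Counted from the lowest log2 fold change, it held rank 291 of the 13927 tested genes. Within the groups, 66cl4 exceeded 67NR by 0.98 ± 0.13 (edgeR adjusted p = 0.000201), the same direction as for Pdgfa and Pdgfb. 4T1.2 lay below 4T1 (-1.11 ± 0.18, edgeR adjusted p = 0.00248). The 67NR and 66cl4 lines carried 176 ± 18.8 and 346 ± 16.4 CPM against 1.44 ± 0.309 and 3.07 ± 0.471 in 4T1.2 and 4T1 (SD, n = 2 each).

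**Figure D1:**
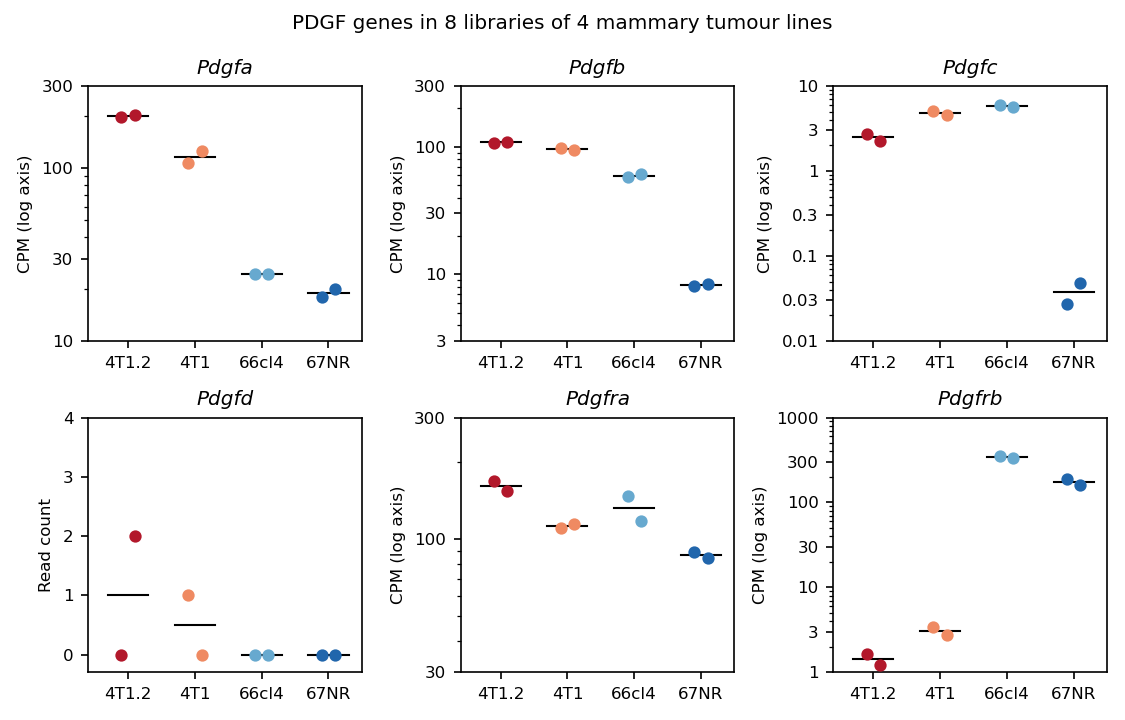
Each panel shows a PDGF gene in the 8 libraries of the 4 lines, in CPM on a log axis (read counts on a linear axis for Pdgfd), with points for libraries and bars for line means. Pdgfa steps down from 201 CPM in 4T1.2 to 18.9 in 67NR, while Pdgfrb rises from 1.44 CPM in 4T1.2 to 346 in 66cl4.

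Taken by line pair, 4T1.2 differed from 67NR in 5 of 5 tested members (67.9% of all tested genes passed), and 4T1 from 67NR also in 5 of 5 (68.2%). 4T1.2 differed from 66cl4 in 5 of 5 (68.8%) and 4T1 from 66cl4 in 3 of 5 (70.1%), with Pdgfc and Pdgfra not passing. Between 66cl4 and 67NR all 5 passed, all higher in 66cl4, against 44.6% of all tested genes. 4T1.2 differed from 4T1 in 4 of 5 (19.3%), with Pdgfa and Pdgfra higher and Pdgfc and Pdgfrb lower in 4T1.2. The comparisons share libraries, so they are not independent of each other.

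**Figure D2:**
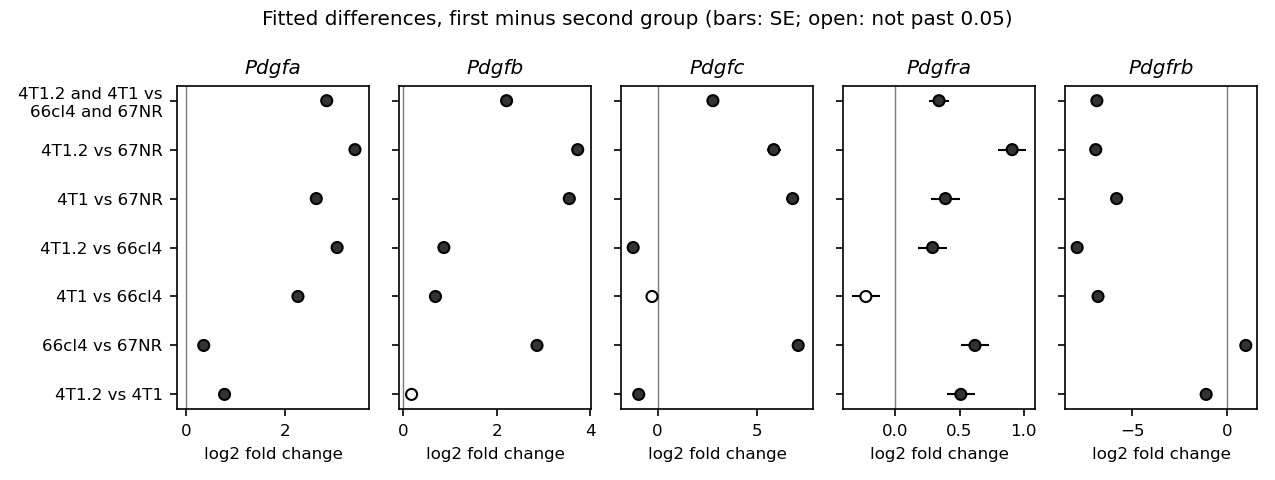
Fitted log2 fold changes (points) with SE (bars) of the 5 tested members in the 7 comparisons, first group minus second, filled where the adjusted p was under 0.05. Pdgfrb is below 0 in 6 of the 7 comparisons and at 0.98 in 66cl4 against 67NR, and the open points are Pdgfb in 4T1.2 against 4T1 and Pdgfc and Pdgfra in 4T1 against 66cl4.

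Levels of different genes were compared per kilobase of counted length (RPKM). Pdgfa stood at 198, 115, 23.9 and 18.6 RPKM in 4T1.2, 4T1, 66cl4 and 67NR, and Pdgfb at 36.9, 32.6, 20.2 and 2.78. Pdgfc reached 1.67 RPKM at most. Pdgfa made up 84.0, 77.1, 52.3 and 86.9% of the summed ligand RPKM in these lines, while Pdgfb made up 15.7, 22.0, 44.1 and 13.0%. On the receptor side Pdgfra made up 98.9 and 96.7% of the summed RPKM in 4T1.2 and 4T1, and 23.5 and 28.4% in 66cl4 and 67NR. The summed receptor RPKM was 0.103 and 0.117 times the summed ligand RPKM in 4T1.2 and 4T1, and 1.83 and 2.13 times in 66cl4 and 67NR. These shares depend on gene length: the count table gives Pdgfa 1019 bases where the GENCODE exons cover 3119, and with the latter Pdgfa falls to 33.6% of the ligand RPKM in 66cl4, below Pdgfb at 61.4%. The ratios of receptor to ligand RPKM then become 0.180, 0.193, 3.29 and 5.08 in the order of lines above.

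**Figure D3:**
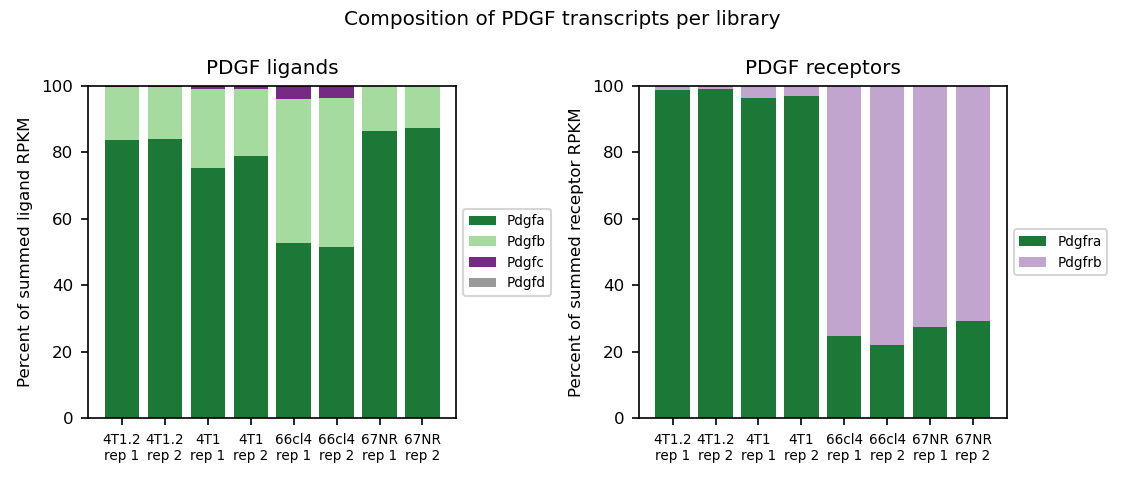
Stacked bars give each ligand (left) and receptor (right) as a percent of the summed RPKM of its class in each library, with the lines along the x axis. Pdgfra fills 98.9% of the receptor bar on average in 4T1.2 and 23.5% in 66cl4, where Pdgfb takes 44.1% of the ligand bar.

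Marker genes of other cell types were read beside Pdgfrb, since this receptor is best known from pericytes and fibroblasts. Of 9 tested fibroblast and pericyte markers, 7 were lower and none higher in 4T1.2 and 4T1. Over all tested genes, 38.6% were lower and 38.1% higher. The summed level of the 13 listed markers was 3.60 to 4.42 CPM over the 4T1.2 and 4T1 libraries and 16.3 to 22.7 CPM in those of 66cl4 and 67NR. The pericyte markers Rgs5 and Cspg4 had at most 6 and 4 reads in any library, and Thy1 at most 2. Of 9 mesenchymal markers, 6 were lower and 2 higher. Zeb1 had means of 0.317 CPM (4T1.2), 0.455 CPM (4T1), 62.5 CPM (66cl4) and 64.1 CPM (67NR), whereas Vim was higher in 4T1.2 and 4T1. The summed level of the mesenchymal list ran from 5490 to 7510 CPM in 4T1.2 and 4T1 and from 3360 to 5640 in 66cl4 and 67NR. Most of this sum was Vim, with means of 5450, 5820, 3270 and 1950 CPM in 4T1.2, 4T1, 66cl4 and 67NR. The sum therefore does not show the direction of the other genes of the list. Of 6 tested epithelial markers, 6 were higher in 4T1.2 and 4T1, and the sum of the list was 1470 to 2890 CPM there against 464 to 719. Most of the lower sum was Krt8, with means of 604 and 495 CPM in 66cl4 and 67NR. Krt18 was at 114 and 0.976 CPM in these lines, and the other listed epithelial markers were at 0.236 CPM or less. Of 2 tested endothelial markers both were higher, with sums of 0.409 to 3.80 CPM over all libraries. Of 5 tested leucocyte and platelet markers 3 were higher and 2 lower. The sum of that list was 5.59 to 7.5 CPM in 4T1.2 and 4T1 against 24.7 to 30.1 CPM in 66cl4 and 67NR. Most of the higher sum was Lyz2, 1 of the 2 lower markers. Lyz2 means were 0.0528, 0.0108, 19.6 and 22.6 CPM in 4T1.2, 4T1, 66cl4 and 67NR. The part of the mesenchymal and epithelial markers in the PDGF differences was not tested.

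Genes whose products process the ligands were divided between the groups. In the pooled comparison 3 of 5 tested genes were higher and 2 lower in 4T1.2 and 4T1, with a median of 0.56 (log2) against -0.01 over all tested genes. Over all tested genes, 38.1% were higher and 38.6% lower. Plau, which encodes urokinase, had mean levels of 1190 CPM (4T1.2), 749 CPM (4T1), 0.377 CPM (66cl4) and 0.282 CPM (67NR), a fitted log2 difference of 11.53 ± 0.13 (edgeR adjusted p = 6.64e-12). St14, which encodes matriptase, had means of 21.2, 106, 0.0444 and 0.198 CPM in the same order (8.95 ± 0.13). Plat, the tissue plasminogen activator that cuts the C chain, was higher by 0.56 ± 0.08. Plat means were 48.6, 42.7, 37.8 and 25.2 CPM in 4T1.2, 4T1, 66cl4 and 67NR, so 67NR weighed most in its pooled value. For Plat, 66cl4 exceeded 67NR by 0.59 (log2, edgeR adjusted p = 0.00177). The convertase genes Furin and Pcsk7 were lower (-0.36 ± 0.11 and -0.45 ± 0.06), and Pcsk5 and Pcsk6 had at most 1 read. Furin means were 73.0, 58.7, 127 and 55.7 CPM in 4T1.2, 4T1, 66cl4 and 67NR, so its lower pooled value rested on 66cl4. For Furin, 66cl4 exceeded 67NR by 1.18 (log2, edgeR adjusted p = 0.000201). Whether any of these proteases cut a PDGF ligand made by these cells was not tested.

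Of 10 tested co-receptors and regulators of PDGF receptor signalling, 3 were higher and 6 lower, with a median of -0.42 (log2). Over all tested genes, 38.1% were higher and 38.6% lower. Lrp1, an endocytic co-receptor, was lower (log2 fold change of -1.37). The phosphatase genes Ptpn1 and Ptpn2, whose products act on tyrosine kinases, were higher by 0.73 and 0.61. Nrp1 was lower (-0.63), as were Ptpn11 (-0.33), Cblb (-0.52) and Cbl (-0.56), while Slc9a3r1 was higher (0.26) and Ptprj did not pass (-0.17, edgeR adjusted p = 0.123). The Cbl call was lost without 4T1.2 replicate 2 (edgeR adjusted p = 0.0677), 66cl4 replicate 1 (adjusted p = 0.0622), 66cl4 replicate 2 (adjusted p = 0.0538) or 67NR replicate 1 (adjusted p = 0.106). Ptprj passed without 4T1.2 replicate 1 (-0.27, edgeR adjusted p = 0.0141).

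Among 32 tested signal transducers, 8 were higher and 17 lower, with a median of -0.19 (log2). The pooled comparison called 76.8% of all tested genes, 38.1% higher and 38.6% lower, so these counts alone say little about the list. Gab1, a docking protein for PI3-kinase and SHP2, had means of 0.484 CPM (4T1.2), 0.792 CPM (4T1), 44.5 CPM (66cl4) and 64.6 CPM (67NR) (-6.42 ± 0.10, edgeR adjusted p = 2.01e-11). Pik3r1, the regulatory subunit of PI3-kinase that binds the receptors, was lower (-1.75), and the adaptor Nck2 and the kinase Akt1 were higher (1.48 and 0.91). Of 32 tested immediate-early and feedback genes known to respond to growth factors, 19 were higher and 11 lower, with a median of 0.61 (log2). By line, the median was 1.04 and 0.81 for 4T1.2 and 4T1 against 67NR, but 0.20 and -0.16 against 66cl4. Against 66cl4, 16 and 14 genes were higher and 13 lower in each comparison, where 68.8 and 70.1% of all tested genes passed. Atf3, a stress and growth factor response factor, was higher by 5.84, and Ccl2, a chemokine induced by PDGF in fibroblasts, by 3.70. Ccl2 means were 28.2 CPM (4T1.2), 51.9 CPM (4T1), 15.9 CPM (66cl4) and 0.49 CPM (67NR), so 67NR weighed most in its pooled value. The transcription factor genes Klf4 and Fosl2 were lower (-2.22 and -1.65). Between 66cl4 and 67NR, 22 response genes were higher and 6 lower in 66cl4, with a median of 0.53, where 44.6% of all tested genes passed. Egr1, chosen after its values were seen, was at 137 CPM in 66cl4 and 0.480 in 67NR.

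**Figure D4:**
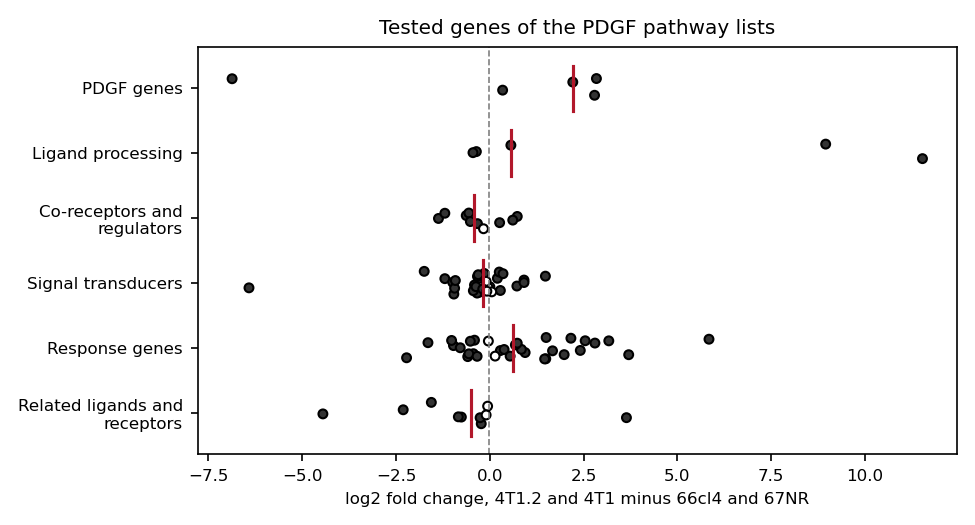
Pooled log2 fold changes of the tested PDGF genes and of the tested genes of the 5 pathway lists on the y axis (no cell type markers), 4T1.2 and 4T1 minus 66cl4 and 67NR, filled where the adjusted p was under 0.05, with red bars at list medians and a dashed line at the median of all tested genes (-0.01). Among the genes plotted, Plau and St14 lie farthest right, at 11.53 and 8.95, and Pdgfrb and Gab1 farthest left, at -6.87 and -6.42.

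The related receptor and ligand genes are included for scale. Csf1r, the gene next in tandem to Pdgfrb, had 0 to 7 reads in each library, and Kit, next to Pdgfra, had 0 in all 8. Kdr had 0 to 1 read and Flt3 0 to 2. Flt1, a VEGF receptor gene outside the list and looked at after the data were seen, had 1202 to 2278 reads (21.2 to 37.3 CPM) over the libraries of 4T1.2 and 4T1. In 66cl4 and 67NR it had 22 to 28 reads (0.405 to 0.763 CPM). Of 10 tested genes of the list of relatives, which holds 13 genes and not Flt1, 1 was higher and 7 lower in 4T1.2 and 4T1. Their median was -0.51 (log2), and over all tested genes 38.1% were higher and 38.6% lower.

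Genes whose profile over the 8 libraries was most like that of a member were found by the root mean square (RMS) difference of centred log2 CPM. For Pdgfa these were Stk39, Cth and Bmp5 (0.147, 0.173 and 0.198). For Pdgfb they were Lurap1l, Zfp704 and Cxxc5 (0.131, 0.152 and 0.249), and for Pdgfra Ext2, Ccdc112 and Tmx4 (0.0747, 0.0904 and 0.0971). Pdgfc and Pdgfrb had neighbours at larger RMS differences. These were Mfsd13a, Cish and Igfbp7 (0.449, 0.466 and 0.533) for the former and Mark1, Cd109 and Mtus1 (0.324, 0.325 and 0.342) for the latter. Their correlations were not lower, at r = 0.978 to 0.998 against 0.962 to 0.976 for the neighbours of Pdgfra.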

How the data were processed

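RNA of cultured cells was sequenced after TruSeq RNA v2 preparation, which does not mark strand. The authors aligned reads to mm10 and assigned them to Entrez genes with featureCounts, per the labels and the study's methods, and the deposited values are raw counts per gene. The aligner, Rsubread, is described for other libraries of the study and was used similarly here. The strand setting is not given in the sources used here, so antisense genes that overlap exons of Pdgfa, Pdgfb, Pdgfc and Pdgfra cannot be told apart from them. No deposited column was left unmapped, and the 8 sample files equal the series table.

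From the counts, edgeR 4.0.16 (R 4.3.3) was run with TMM scaling, filterByExpr by line (15269 genes pass), removal of ribosomal, predicted and unmatched identifiers (13927 tested) and a quasi-likelihood fit with a mean per line, legacy settings and a prior count of 0.125. SEs are the fold change over the root of F. CPM uses the TMM effective library size, and RPKM the length in the count table. Of 27179 identifiers, 25275 (93.0%) matched GRCm38. The fit was tested on simulated data. Alternatives were DESeq2 1.42.0, limma-voom 3.58.1, other filters and scalings, thinning, a replicate block and leaving out each library. Genes named were the members, list genes with the 2 largest and 2 smallest pooled changes among called genes whose libraries do not overlap and whose mean was at least 1 CPM, all processing and regulator genes, and the 3 nearest profiles. The values of 1 list gene are not reported here. The members and lists were chosen with earlier results of these data known, and the study itself had named Pdgfb from these libraries. Replicates are biological per the study's methods, but separate cultures are not described.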

Additional observations from a re-analysis of the deposited data

How the results depend on the processing

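The 35 fitted differences of the tested members were recomputed under up to 19 settings, 660 values in all, since the fit of a comparison's own 4 libraries does not apply to the 5 pooled differences. Of these, 648 kept their direction and their side of the threshold, 11 lost a call, 1 gained a call and 0 reversed. The changed calls were those of Pdgfa and Pdgfra given beside their values, and 4T1.2 against 66cl4 for Pdgfra was also lost in a fit of those 4 libraries alone (0.29, edgeR adjusted p = 0.0601). With a prior count of 2 the Pdgfc differences of 4T1 and 66cl4 from 67NR were 5.93 and 6.21, and that of 4T1.2 was 0.86 lower than without it. After thinning, that of 4T1.2 was 6.51. Settings for list genes beyond DESeq2 size factors, and the longest-transcript length, were chosen after seeing the data. Of 414 values of named list genes 409 kept their call, and of 360 list counts 354 stayed within 1.5 times.

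The number of fibroblast and pericyte markers higher went from 0 to 1 with limma-voom, after thinning, and from 0 to 1 over the left-out libraries. Higher endothelial markers went from 2 to 1 with DESeq2's Wald test, and from 1 to 2 over the left-out libraries.

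With the GENCODE exon union length, Pdgfa made up 70.8, 60.9, 33.6 and 75.5% of the ligand RPKM in 4T1.2, 4T1, 66cl4 and 67NR, and with the longest transcript 72.2, 62.5, 35.1 and 76.7%. Pdgfra made up 98.4, 95.3, 17.3 and 21.2% of the receptor RPKM with the exon union. The receptor to ligand ratio was 0.180, 0.193, 3.29 and 5.08 with the exon union and 0.177, 0.189, 2.47 and 3.78 with the longest transcript. These moves follow from the lengths themselves.

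With the replicate number as a block, 5, 5, 5, 5, 3, 5 and 4 members were called in the 7 comparisons, as without it, and 10800 genes in all in the pooled comparison against 10689. The numbers pair no samples by design, and deviations of same-numbered libraries correlated at -0.123 to 0.270. Depth limits Pdgfd in every line and Pdgfc in 67NR, and with 2 libraries per line the spread is shared over the 4 lines.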

Other observations

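The 2 nearest tested genes on each side of a member were read after the data had been seen. Beside Pdgfrb, Hmgxb3 and Tcof1 did not pass in the pooled comparison (log2 fold changes of -0.16 and -0.17, edgeR adjusted p = 0.15 and 0.185), Slc26a2 was higher (0.55) and Camk2a lower (-1.67). Beside Pdgfb, Cbx7 and Apobec3 were lower (-0.29 and -0.17) where Pdgfb was higher, as were Snord83b and Snord43 (-2.4 and -1.74), both low in every line. Beside Pdgfa, Fam20c (-9.82), A430033K04Rik (-0.3) and Sun1 (-0.29) were lower, and Dnaaf5 did not pass (-0.04, edgeR adjusted p = 0.725). Beside Pdgfra, Lnx1 and Chic2 were higher (0.35 and 0.62), Srd5a3 was lower (-0.27) and Tmem165 did not pass (0.09, edgeR adjusted p = 0.182). Srd5a3 and Tmem165 lay 942 and 986 kb from Pdgfra. The tested genes nearest to Pdgfc were distant. Tmem144 and Gask1b lay 1180 and 1090 kb before it, and Ctso and Tdo2 719 and 744 kb after it. All were lower in the pooled comparison (-1.51, -11.56, -0.78 and -0.88 in that order). Tmem144 and Gask1b were also lower in 66cl4 than in 67NR (-1.76 and -1.10, edgeR adjusted p = 3.80e-06 and 0.0014). Ctso and Tdo2 did not pass between these lines (0.20 and -0.60, edgeR adjusted p = 0.197 and 0.295). The median over 668 tested genes of chromosome 3 was -0.59 in the comparison of 66cl4 and 67NR, where Pdgfc was at 7.09.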
